A study of Homo sapiens with 4 samples.

Results

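The array labelled LNCaP-AI was set against the array labelled PC3-L, the pair of human prostate cancer cultures that the source names mark as low in the laminin-binding O-glycan of alpha-dystroglycan. These are 2 of the 4 arrays of the series, with 1 array per culture. The arrays were taken by title and source name. A gene was compared where its brightest probe reached the 40th percentile of the array on which it was brighter, an intensity of 34.5 on the array labelled LNCaP-AI or 33.6 on PC3-L. This left 10942 of the 14006 genes with a named probe.

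PC3 is a line from a bone metastasis that grows without androgen, and LNCaP is a line from a lymph node metastasis that depends on androgen. PC3-H and PC3-L were sorted out of PC3 with the antibody IIH6C4, which binds the laminin-binding glycan, as its high and low cells. LNCaP-AI is given as LNCaP adapted to serum stripped with charcoal, which lowers steroids, and its description also speaks of medium conditioned by perineural cells. Motility and invasion are labelled high for PC3-L and LNCaP-AI, and low for the other cultures. All were grown in RPMI1640 with serum. The labels disagree in places: the description fields turn the glycan status of the sorted PC3 cultures round, and the one for LNCaP calls that culture androgen-independent. Titles and source names were followed here. Each group is a single culture, the number of independent sorts or adaptations behind it is not stated, and no difference below has a replicate check, an error or a test. In a culture read as bulk RNA, fewer cells of a type and less RNA per cell cannot be told apart.

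Alpha-dystroglycan is a cell surface receptor that binds laminin of the basement membrane through a sugar chain built on O-linked mannose, and further enzymes extend the repeat that laminin recognises. Prostate cancers can lose this chain while the core protein stays. LNCaP cells express the androgen receptor program and luminal epithelial genes, whereas PC3 cells lack that program and express many mesenchymal and inflammatory genes.

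The array labelled LNCaP-AI did not carry the LNCaP markers. For KLK3, the gene of prostate-specific antigen, the intensity was 59.0 on PC3-H, 63.4 on PC3-L, 1781 on LNCaP and 61.2 for the array labelled LNCaP-AI. FOLH1, which encodes prostate-specific membrane antigen, had 23.4, 23, 944 and 24.2 in the same order. The luminal transcription factor HOXB13 had 110, 45.1, 407 and 39.5. All 3 genes were highest on LNCaP, and the array labelled LNCaP-AI lay close to PC3-L in each. PC3 markers mostly showed the reverse. EMP3, a membrane protein of mesenchymal cells, had 575, 1794, 37.2 and 2473, and the receptor kinase AXL had 609, 900, 47.4 and 1015. The filament protein VIM had 104, 896, 65.1 and 1216, so that both low-label arrays were far above PC3-H as well as LNCaP. Over the 12 LNCaP markers with a named probe the summed intensity was 1347 on PC3-H, 781 on PC3-L, 6163 on LNCaP and 747 for the array labelled LNCaP-AI. Over the 13 PC3 markers it was 5578, 7045, 832 and 7015. The marker genes therefore went against the line named in the label, and a direction read from this array is a direction for the array labelled LNCaP-AI and not for LNCaP cells.

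The genes that separate the lines were also read without a marker list. Of genes past the filter, 70 were 4-fold or more higher on LNCaP than on PC3-H, arrays that take no part in the low-label pair. Between the array labelled LNCaP-AI and PC3-L their median log2 difference was -0.05, with 2 genes higher (2.86%) and 3 lower (4.29%) by 2-fold or more. For the 114 genes 4-fold or more lower on LNCaP the median was -0.09, with 8 higher (7.02%) and 15 lower (13.2%), beside 0.832% and 1.96% over all genes. LNCaP and PC3-H themselves differed by 2-fold or more in 541 genes upward (4.94%) and 460 downward (4.20%).

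Between the low-label arrays 91 genes were higher on the array labelled LNCaP-AI by 2-fold or more (0.832%) and 214 were lower (1.96%), together 305 of 10942 (2.79%). Differences are given throughout as log2(intensity + 1) of the array labelled LNCaP-AI minus PC3-L, so a positive value means brighter on the former. The median was 0.01, the 5th percentile -0.74 and the 95th 0.49, and 82.9% of genes lay within 0.5 of 0. Across these genes the correlation of the log2 intensities was 0.934, which is a description over genes that share the 2 arrays. Past 4-fold there were 10 genes higher and 12 lower. Of the 305 genes 29.8% were on the higher side. That split moved with the scaling: when a trend with intensity was removed, 111 genes were higher and 146 lower, which put 43.2% on the higher side. Among 12437 probes that have no gene name and passed the same filter, 122 were higher (0.981%) and 212 lower (1.70%). GBP3 (1.01) and TFPT lay just past the 2-fold limit on the higher side, with ZNF362 and CILK1 (0.99) just within it. LYRM1 and MCL1 lay just past it on the lower side, with NOLC1 and MRPS31 just within it. Intensities did not go below 17.6 on any array, so the fold of a gene near that level on one array is understated.

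**Figure D1:**
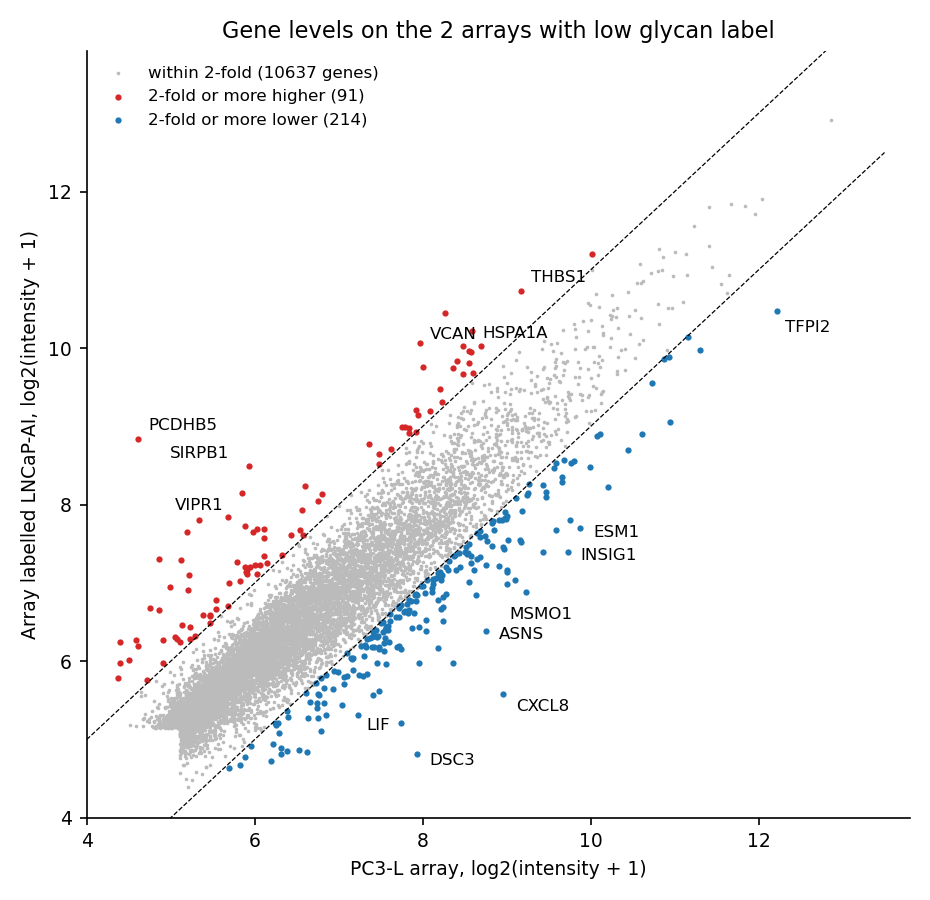
Log2(intensity + 1) on PC3-L (horizontal) and on the array labelled LNCaP-AI (vertical), 1 point per gene over 10942 genes past the filter, with genes 2-fold or more apart in colour. The 91 higher genes lie above the diagonal band with PCDHB5 farthest from it, and the 214 lower genes lie below it with CXCL8 farthest.

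Among the 91 higher genes 13 were beta-protocadherins, a family chosen after its values were seen. These are cadherin-type adhesion proteins of the cell surface, known from neurons, encoded side by side in a cluster on chromosome 5, where each gene has its own promoter. Of the 18 genes with a named probe, 13 were higher on the array labelled LNCaP-AI by 2-fold or more, beside 0.832% of all genes, and 0 were lower. The median over all 18 was 1.55 beside 0.01 over all genes. PCDHB5 had an intensity of 25.5 on PC3-H, 23.5 on PC3-L, 130 on LNCaP and 458 for the array labelled LNCaP-AI, a difference of 4.23. PCDHB10 had 27.6, 39.4, 30.2 and 222 (2.46), and PCDHB16 had 29.1, 28.0, 24.7 and 158 (2.45). PCDHB2 had 51.6, 35.5, 75.1 and 200 (2.46). All 4 were dimmer on both PC3 cultures than on the array labelled LNCaP-AI, and only PCDHB5 and PCDHB2 of the 4 had their next highest value on LNCaP by a clear margin. In 17 of the 18 genes the array labelled LNCaP-AI was the highest of the 4 arrays. The exception was PCDHB1 (27.9, 26.5, 29.3 and 28.5), which sits at the start of the cluster.

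The other members spread widely. PCDHB11 (2.17), PCDHB14 (1.96), PCDHB12 (1.79), PCDHB6 (1.68), PCDHB13 (1.58), PCDHB15 (1.51), PCDHB8 (1.42), the pseudogene PCDHB18P (1.13) and PCDHB9 (1.01) were past 2-fold. PCDHB3 (0.79), PCDHB4 (0.47), PCDHB7 (0.43) and the pseudogene PCDHB19P (0.24) were not. PCDHB4 had only 28.9 on the array labelled LNCaP-AI and PCDHB7 34.4, both within the dimmest 40% of its probes. Members of this cluster are close copies of each other, and probes may not separate them, so the value of a single gene is less certain than that of the group. Among the neighbouring genes, the small vault RNA VTRNA1-1 had 95, 66.0, 56.1 and 150 (1.17). The other vault RNA genes past the filter, among them VTRNA1-2 and VTRNA1-3 beside it, were within 2-fold. The growth factor gene HBEGF, farther up the chromosome, had 388, 62.3, 42.4 and 42.8 (-0.53). A window of 25 neighbouring genes from HBEGF to PCDHB15 had a median of 1.13 with 14 genes higher and 0 lower. Windows hold only genes past the filter, so PCDHB1, PCDHB4 and PCDHB7 were not in it. Several of its members passed only through the array labelled LNCaP-AI, which can raise the window's median.

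Comparisons that share an array with this one gave these medians over all 18 beta-protocadherins with a named probe: 0.04 for PC3-L minus PC3-H, 1.49 for the array labelled LNCaP-AI minus PC3-H, and 1.45 for it minus LNCaP. The last pair both use the array labelled LNCaP-AI.

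**Figure D2:**
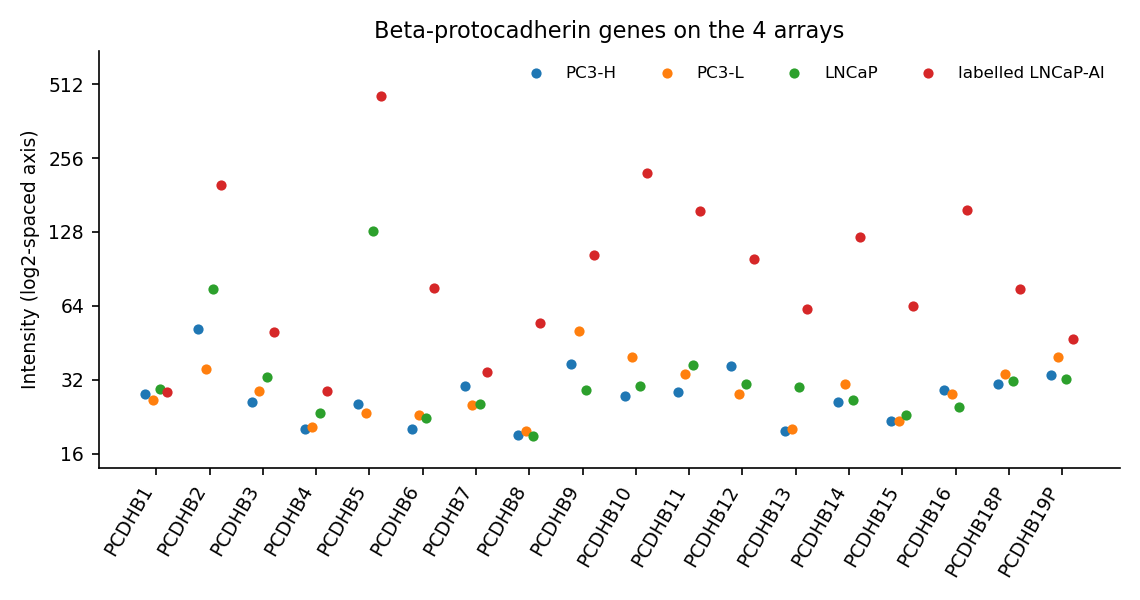
Intensity (log axis) of each of the 18 beta-protocadherin genes with a named probe, in order of gene number, with 1 point per array. The array labelled LNCaP-AI is highest in 17 genes, from 28.9 for PCDHB4 to 458 for PCDHB5, and in PCDHB1 the 4 arrays lie between 26.5 and 29.3.

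Clustered protocadherin promoters are known for a conserved element to which the chromatin protein CTCF binds. The stretches below show the run of 9 bases that the promoters of this cluster shared, in capitals, for 5 genes past 2-fold and for PCDHB4 and PCDHB7, which were not past it. They are RefSeq promoter sequences of GRCh38.p14, 60 bases each on the plus strand, at chr5:141135146-141135205 (PCDHB5), chr5:141094529-141094588 (PCDHB2), chr5:141192284-141192343 (PCDHB10), chr5:141182295-141182354 (PCDHB16), chr5:141245299-141245358 (PCDHB15), chr5:141121708-141121767 (PCDHB4) and chr5:141172551-141172610 (PCDHB7).
PCDHB5: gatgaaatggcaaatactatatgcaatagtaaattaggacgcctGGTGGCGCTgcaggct
PCDHB2: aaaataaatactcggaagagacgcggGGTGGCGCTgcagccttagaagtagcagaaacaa
PCDHB10: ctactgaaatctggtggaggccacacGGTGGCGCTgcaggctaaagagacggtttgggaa
PCDHB16: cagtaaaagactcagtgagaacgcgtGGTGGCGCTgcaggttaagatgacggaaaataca
PCDHB15: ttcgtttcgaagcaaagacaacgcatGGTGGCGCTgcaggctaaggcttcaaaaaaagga
PCDHB4: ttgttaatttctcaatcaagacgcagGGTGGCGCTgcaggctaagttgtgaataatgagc
PCDHB7: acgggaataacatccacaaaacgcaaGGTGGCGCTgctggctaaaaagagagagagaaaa
The motif GGTGGCGCT was searched on both strands of the 250 bases before each start. It was in 12 of the 14 beta-protocadherin genes with a promoter sequence (85.7%) and in 144 of 35116 promoters in all (0.410%). It was not in the windows of PCDHB1 and PCDHB8. Here and below, the count for a group is of genes with a match in any of their promoters. The share over all is of single promoters, so a gene with several promoters has more chances to match. The run was chosen because these promoters share it, so its share among them is a description. PCDHB8 had 19.0, 19.7, 18.9 and 54.4 and was past 2-fold without the run in its window, while PCDHB4 and PCDHB7 held the run and were not past 2-fold.

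Outside the cluster the higher genes were of mixed kinds. SIRPB1, a receptor of the signal-regulatory protein family known from myeloid cells, had 100 on PC3-H, 60.3 on PC3-L, 39.7 on LNCaP and 358 for the array labelled LNCaP-AI (2.55). SIRPD of the same family had 31.6, 35.9, 29.0 and 119 (1.70), and the copies of this family may share probes. VIPR1, the receptor for vasoactive intestinal peptide, had 65.3, 56.5, 103 and 282 (2.30). SERTAD4 had 52.6, 50.5, 30.7 and 228 (2.15). In all 4 genes the array labelled LNCaP-AI stood above the other 3. The same held for HNMT, the enzyme that methylates histamine, with 49.7, 36.4, 38.9 and 136 (1.88). It also held for FZD1, a Wnt receptor, with 35.2, 58.3, 65.9 and 211 (1.84). The endocytic receptor LRP1 had 132, 95.7, 82.2 and 301 (1.64), and TRIB2, a pseudokinase, had 88.1, 62.0, 31.4 and 200 (1.67). ENPP4 differed by 1.93, with 102 on the array labelled LNCaP-AI, 26.0 on PC3-L and 83.4 on LNCaP.

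Matrix genes went in both directions, where 0.832% of all genes were higher by 2-fold or more and 1.96% lower. VCAN, the large proteoglycan versican, had 48.0, 249, 27.2 and 1067 (2.09), low on both high-label arrays. MGP, a small matrix protein that limits calcification, had 24.1, 20.1, 21.9 and 75.2 (1.85), and FBN1, the microfibril protein fibrillin, had 67.1, 36.7, 27.5 and 85.9 (1.21). SPP1, which encodes osteopontin, had 36.1, 289, 33.3 and 71.0 (-2.01), and the matrix protein tenascin gene TNC had 370, 1692, 39.3 and 752 (-1.17). Of 14 interstitial matrix genes past the filter these 3 were higher and 2 lower, with a median of 0.19. Among 22 proteases and inhibitors 2 were higher, 2 were lower and the median was -0.10. The inhibitor TIMP2 had 501, 413, 179 and 1046 (1.34) and the membrane protease MMP14, with which TIMP2 acts in activating pro-MMP2, had 129, 216, 23.2 and 508 (1.23). TFPI2, a serine protease inhibitor of the matrix, had 450, 4768, 30.7 and 1424 (-1.74), and ADAM17, a sheddase, had 142, 456, 113 and 221 (-1.04). MMP1, the interstitial collagenase, had 27.4, 3143, 28.2 and 1664 (-0.92). It was thus bright on both low-label arrays and near the lowest intensities on both high-label arrays. The mesenchymal list held 1 higher gene of 18, the matrix glycoprotein gene THBS1, with 2427, 576, 140 and 1702 (1.56).

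The list of integrins and laminin receptors, which also holds other surface proteins, lay mostly above 0. Of 9 past the filter 8 were above 0, beside 50.6% of all genes. The median was 0.51, or 0.26 over all 11 with a named probe, beside 0.01 over all genes. Past 2-fold was 1 gene, the glypican GPC6, with 75.6, 93.5, 50.1 and 243 (1.37). The syndecans SDC4 (0.83), SDC3 (0.74) and SDC1 (0.63) and the tetraspanin CD151 (0.51) stayed within it, and the hyaluronan receptor CD44 was at -0.10. Of the genes that build the laminin-binding glycan 0 of 9 with a named probe were past 2-fold in either direction, and with 2.79% of all genes past it, so small a list cannot show a lower share. The median was 0.02, and the values ran from -0.25 for POMT2, an O-mannosyltransferase, to 0.26 for DPM3, a subunit of dolichol-phosphate-mannose synthase. LARGE2, which extends the laminin-binding repeat, had 160 on PC3-H, 54.3 on PC3-L, 92.5 on LNCaP and 62.2 for the array labelled LNCaP-AI (0.19). Both low-label arrays were thus below both high-label arrays for this gene, and close to each other. The 9 genes had no common order. The lowest array was PC3-H for 2, PC3-L for 3, LNCaP for 1 and the array labelled LNCaP-AI for 3. POMK, the kinase that phosphorylates the O-mannose, had 124, 211, 530 and 190 (-0.14). The others were POMT1 (-0.14), RXYLT1 (-0.12), GMPPB (0.02), DOLK (0.12) and POMGNT2 (0.19). No error is known for these small values. Of 11 enzymes that start mucin-type chains 0 were past 2-fold, with a median of -0.31, and of 9 enzymes of elongation and sialylation 1 was lower, the chondroitin sulfotransferase CHST11 (-1.08).

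Chemokine and cytokine genes gave some of the largest differences on the lower side. CXCL8, the neutrophil chemokine interleukin-8 made by PC3 cells, had 302 on PC3-H, 497 on PC3-L, 22.3 on LNCaP and 46.9 for the array labelled LNCaP-AI, a difference of -3.38. LIF, a cytokine of the interleukin-6 family, had 241, 214, 42.0 and 35.9 (-2.54), and PTGS2, the inducible cyclooxygenase, had 266, 83.0, 28.5 and 38.2 (-1.10). For these 3 genes the array labelled LNCaP-AI lay below both PC3 cultures, unlike AXL, EMP3 and VIM. CXCL8 is itself in the list of PC3 markers and was its lowest member. Of 17 genes of the inflammatory list past the filter these 3 were lower (17.6%, beside 1.96% of all genes), 0 were higher and the median was -0.27. Over all 25 with a named probe the median was -0.07. CXCL3 was at -0.94, CXCL6 at -0.37 and CSF3 at 0.10, so the members differed in size and sign. The CXCL8 promoter is shown with its run of the kappa-B type, the class of site that NF-kappa-B binds, in capitals, as 60 bases on the plus strand of GRCh38.p14 at chr4:73740452-73740511, from RefSeq.
CXCL8: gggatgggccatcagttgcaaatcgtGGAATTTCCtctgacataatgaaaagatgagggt
The run GGNNNTTCC, searched on both strands, was in a promoter of 18 of 32 listed inflammatory genes (56.2%), among them CXCL3 and CXCL6. These 32 are the listed genes with a promoter sequence, whether or not they had a named probe. The run was in 17.1% of all promoters, counted singly. Of the 173 genes lower by 2-fold or more with a promoter sequence, 40 held it (23.1%). The AP-1 type run TGANTCA was in 6 of the 32 (18.8%), CXCL8 included, and in 6.57% of all promoters. Such a match is only a run of letters and shows no binding.

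Growth factor and angiogenic genes were also among the 20 lowest. ANGPT2, a ligand of the endothelial receptor TIE2, had 32.2, 327, 57.5 and 62.1 (-2.38). ESM1, a secreted proteoglycan, had 88.1, 940, 32.1 and 207 (-2.18), and FGF2, a fibroblast growth factor, had 179, 767, 31.4 and 204 (-1.90). In all 3 PC3-L was the highest array, and the array labelled LNCaP-AI lay above LNCaP. The hypoxia-inducible factor gene EPAS1 differed: it had 442, 512, 38.9 and 142 (-1.84), with both PC3 cultures high. The antisense RNA HIF1A-AS2 had 307, 178, 83.1 and 48.0 (-1.87), and whether the probe separates it from HIF1A is not stated. In the list of immediate-early and MAPK feedback genes 5 of 39 were lower (12.8%, beside 1.96% of all genes) and 0 higher, with a median of -0.13. They were LIF, which is also in the inflammatory list, the phosphatases DUSP1 (317, 511, 218 and 126, or -2.01) and DUSP5 (-1.30), the inhibitor SPRY4 (-1.48) and the transcription factor EGR1 (-1.15). FOSL1, an AP-1 subunit, was bright on both arrays, with 1002 on PC3-L and 1192 on the array labelled LNCaP-AI (0.25).

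Several genes of amino acid supply and of tRNA charging were lower by 2-fold or more. The integrated stress response raises amino acid synthesis, transport and tRNA charging through the transcription factor ATF4. ASNS, the asparagine synthetase and a known ATF4 target, had 95.4 on PC3-H, 431 on PC3-L, 244 on LNCaP and 82.9 for the array labelled LNCaP-AI (-2.36). PSAT1, an enzyme of serine synthesis, had 261, 1185, 996 and 300 (-1.98). For both genes PC3-H and the array labelled LNCaP-AI were the low arrays, and PC3-L and LNCaP the high ones. Of 25 genes of the list for amino acid and unfolded protein stress 9 were lower (36.0%, beside 1.96% of all genes), 0 were higher and the median was -0.68. Of the 25, 3 were above 0. The list also held DDIT4 (-1.54), SESN2 (-1.51) and TRIB3 (-1.31), which are stress-induced regulators, while ATF4 itself had 170, 427, 295 and 230 (-0.89) and the stress factor DDIT3 had 31.8, 60.8, 76.8 and 37.7 (-0.68).

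The cytosolic aminoacyl-tRNA synthetases, which load amino acids onto tRNAs, were then read as a family. This family was chosen after its values were seen, and 4 of its members (WARS1, EPRS1, CARS1 and SARS1) are also in the stress list. Of 17 genes 9 were lower by 2-fold or more (52.9%, beside 1.96% of all genes), 0 were higher and the median was -1.07. GARS1 had 277, 863, 550 and 223 (-1.95), and NARS1 had 534, 1559, 931 and 478 (-1.70). WARS1 (-1.29), TARS1 (-1.25), EPRS1 (-1.23), IARS1 (-1.21), LARS1 (-1.18), CARS1 (-1.09) and SARS1 (-1.07) followed. The glutamine enzyme QARS1 (485, 279, 329 and 368, or 0.40) and the valine enzyme VARS1 (0.14) were the only members above 0. PC3-L was the highest array for 10 of the 17, and the array labelled LNCaP-AI the lowest for 9. Side by side, comparisons that share an array gave medians for the family of 0.68 for PC3-L minus PC3-H and -0.21 for the array labelled LNCaP-AI minus PC3-H, and for the stress list 0.38 and -0.31.

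Promoters of this group are shown for the core of the amino acid response element, to which ATF4 dimers bind, in capitals. They are RefSeq promoters of GRCh38.p14, 60 bases each and 5' to 3' on the strand of the gene, at chr7:97872443-97872502 (ASNS, minus strand), chr7:30594818-30594877 (GARS1, plus strand), chr9:92293698-92293757 (IARS1, minus strand) and chr16:70289660-70289719 (AARS1, minus strand).
ASNS: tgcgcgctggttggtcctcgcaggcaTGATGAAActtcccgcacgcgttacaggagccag
GARS1: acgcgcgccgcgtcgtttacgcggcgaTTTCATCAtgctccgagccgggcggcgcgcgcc
IARS1: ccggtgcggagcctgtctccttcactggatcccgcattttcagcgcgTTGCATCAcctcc
AARS1: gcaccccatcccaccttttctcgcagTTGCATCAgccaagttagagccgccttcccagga
In ASNS the motif TGATGNAA reads forward, and in the other 3 its reverse complement stands in capitals. Searched on both strands it was in a promoter of 3 of 14 synthetase genes (21.4%) and of 5 of 33 genes of the stress list (15.2%). These 33 include listed genes without a named probe. The motif was in 3.14% of all promoters, counted singly. Among all genes lower by 2-fold or more it was in 7 of 173 (4.05%). Of the synthetases that held it, GARS1 and IARS1 were past 2-fold, and the alanine enzyme AARS1 had 588, 1116, 1483 and 680 (-0.71).

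Genes of cholesterol synthesis also held differences on the lower side. Cells make cholesterol through the mevalonate pathway, and the factor SREBP2 raises its genes when sterols are short. MSMO1, a sterol oxidase late in the pathway, had 74.0 on PC3-H, 602 on PC3-L, 163 on LNCaP and 118 for the array labelled LNCaP-AI (-2.35). INSIG1, which holds SREBP in the endoplasmic reticulum and is itself sterol-regulated, had 68.7, 846, 166 and 167 (-2.33). STARD4, a sterol carrier, had 40.7, 302, 51.7 and 90.3 (-1.73). In these genes PC3-L alone was high. Of 18 genes 7 were lower (38.9%, beside 1.96% of all genes) and 1 was higher (5.56%, beside 0.832%), with a median of -0.84. The other lower genes were SQLE (-1.54), HMGCS1 (-1.26), IDI1 (-1.24) and HSD17B7 (-1.07), enzymes that stand early and late in the pathway. The higher gene was EBP, a sterol isomerase, with 288, 59.1, 135 and 142 (1.25). PC3-L was the highest array for 14 of the 18 genes. Comparisons that share an array gave list medians of 1.32 for PC3-L minus PC3-H and 0.22 for the array labelled LNCaP-AI minus PC3-H. SCD, the desaturase that makes oleate, had 360, 1978, 1006 and 533 (-1.89) and was the only one of 15 fatty acid genes past 2-fold, with a list median of -0.29.

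**Figure D3:**
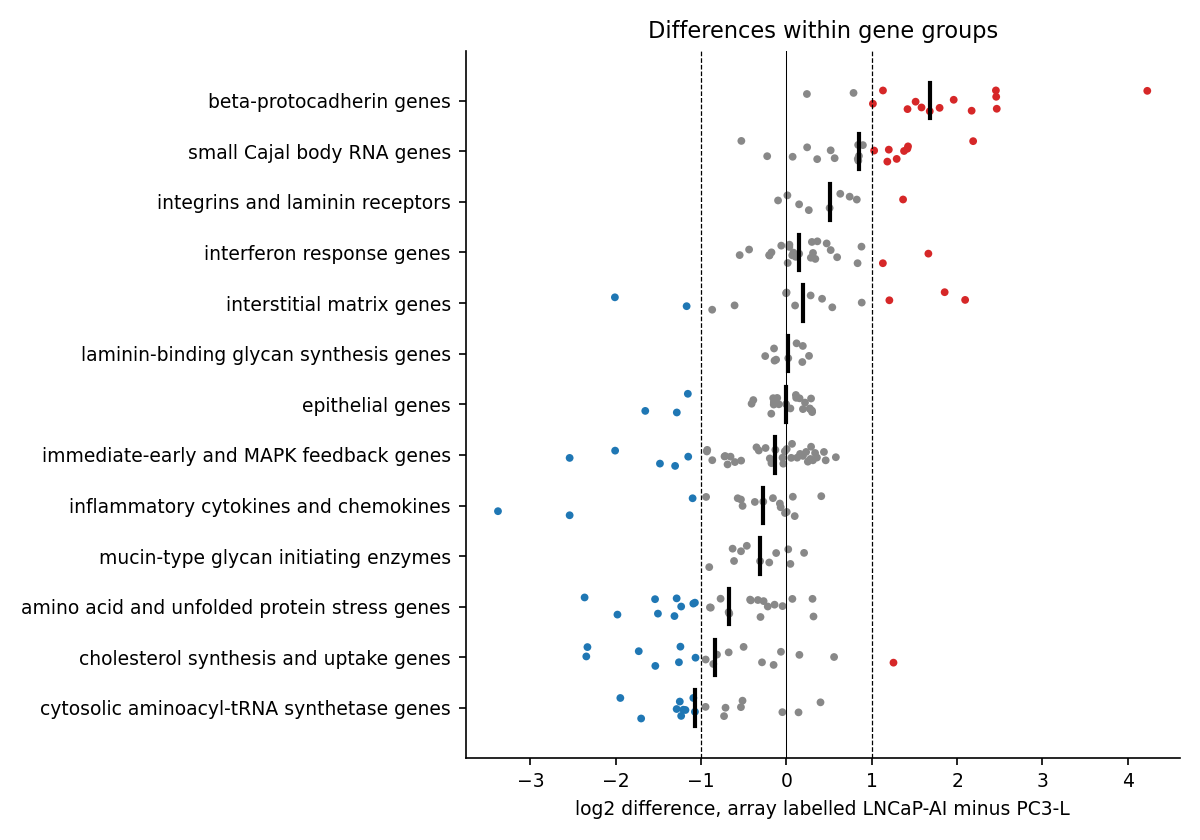
Log2 difference of the array labelled LNCaP-AI minus PC3-L for genes past the filter in each named group, with 1 point per gene, a bar at the group's median and dashed lines at 2-fold. The beta-protocadherin points lie to the right with a median of 1.68, which is 1.55 over all 18 with a named probe. Those of the tRNA synthetases (-1.07), cholesterol (-0.84) and stress (-0.68) groups lie to the left.

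Small Cajal body RNAs guide chemical modification of the spliceosome's RNAs. This class was also chosen after its values were seen. Of 21 with a named probe 8 were higher by 2-fold or more, beside 0.832% of all genes, 0 were lower and the median was 0.84. SCARNA5 had 1312, 307, 377 and 1401 (2.19), SCARNA9 had 561, 340, 532 and 914 (1.42), and SCARNA7 had 518, 381, 244 and 993 (1.38). SCARNA17 was at -0.53. PC3-L was the lowest array for 14 of the 21 genes. Of 402 microRNA genes past the filter 1 was higher (0.249%) and 4 were lower (0.995%), beside 0.832% and 1.96% of all genes. Of 12 heat shock and co-chaperone genes past the filter 2 were higher (16.7%, beside 0.832%) and 1 was lower (8.33%, beside 1.96%). The list median was 0.18. The higher ones were of the HSP70 family, HSPA1A (1176, 383, 929 and 1188, or 1.63) and HSPA1B (1129, 356, 890 and 1044, or 1.55). Both were low on PC3-L alone, and probes may not separate these near-identical copies. The lower one was HSPA9 (-1.01), of the same family.

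Among epithelial genes EPCAM, an adhesion molecule, had 667, 30.1, 314 and 33.3, so both low-label arrays were near the lowest intensities. Of 23 epithelial genes past the filter, 3 were lower by 2-fold or more (13.0%, beside 1.96% of all genes), 0 were higher, and the median was 0.00. The tight junction genes CLDN1 (67.5, 91.2, 28.1 and 28.3, or -1.65) and OCLN (109, 143, 228 and 58.3, or -1.28) and the desmosomal cadherin DSG2 (303, 505, 534 and 226, or -1.16) were the lower ones. A desmosomal cadherin that was not in the list, DSC3, had 56.1, 242, 33.0 and 27.1 (-3.11). DSC3 and DSG2 both lie on chromosome 18.

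Guidance and interferon genes held scattered differences, where 0.832% of all genes were higher by 2-fold or more and 1.96% lower. Of 34 axon guidance genes the ligand SLIT2 (241, 111, 33.5 and 281, or 1.33) and the receptors EPHA5 (1.25) and NRP1 (635, 220, 193 and 507, or 1.20) were higher, and the receptors PLXNA2 (-1.15) and EPHA7 (-1.07) were lower, with a median of 0.16. Of 25 interferon response genes UBE2L6, an enzyme of ISG15 conjugation, had 104, 64.1, 55.7 and 205 (1.66) and the factor IRF1 had 78.6, 43.1, 38.9 and 95.5 (1.13). The other 23 were within 2-fold and the median was 0.15. HMOX1, the heme oxygenase, had 74.9, 572, 76.0 and 187 (-1.61), and BMP6, a bone morphogenetic protein, had 68.3, 262, 39.1 and 91.2 (-1.51). Of 42 cell cycle genes 1 was lower, HMMR (-1.03), and 0 were higher. No gene was past 2-fold in either direction among 10 androgen-induced genes, 30 HOX genes and cofactors, 16 neurotrophic factors and receptors, 12 progenitor genes and 15 genes of the respiratory chain. With 2.79% of all genes past it, such small lists cannot show a lower share.

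Markers of other cell types did not separate the low-label arrays by 2-fold, except CLDN1, which is in the perineurial list too. The 7 perineurial and Schwann cell markers with a named probe summed to 420, 363, 465 and 331, and SOX10, a transcription factor of Schwann cells, had 60.4, 58.3, 54.2 and 60.8. Endothelial markers (6 genes) summed to 279, 266, 262 and 300, and fibroblast markers (3 genes) to 101, 93.3, 90.3 and 93.7. Leukocyte markers (6 genes) summed to 501, 826, 293 and 746, led by the lysosomal protein CD68 with 290, 630, 102 and 553.

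The lower genes were unevenly spread over the chromosomes. On chromosome 18, 26 of the 154 genes past the filter were lower by 2-fold or more (16.9%) and 0 were higher, with a median of -0.45 beside 0.01 over all genes. Chromosome 19 had 0 lower of 900, chromosome 13 had a median of -0.26, and chromosome 17 one of 0.14. The chromosome 18 genes came to 1.41% of all genes past the filter and to 12.1% of those lower by 2-fold or more. Besides DSC3 and DSG2 they included EPG5, an autophagy gene, with 75.9, 548, 121 and 130 (-2.06), and the signalling adaptor gene MALT1 with 163, 301, 446 and 112 (-1.42). SMAD2, a transducer of TGF-beta, had 204, 452, 263 and 177 (-1.35), the transcription factor TCF4 had 60.9, 435, 53.6 and 184 (-1.24), and the kinase YES1 had 442, 1079, 382 and 471 (-1.20). With no filter, the median over all named genes of the chromosome was -0.13, which includes genes near the lowest intensities on both arrays.

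**Figure D4:**
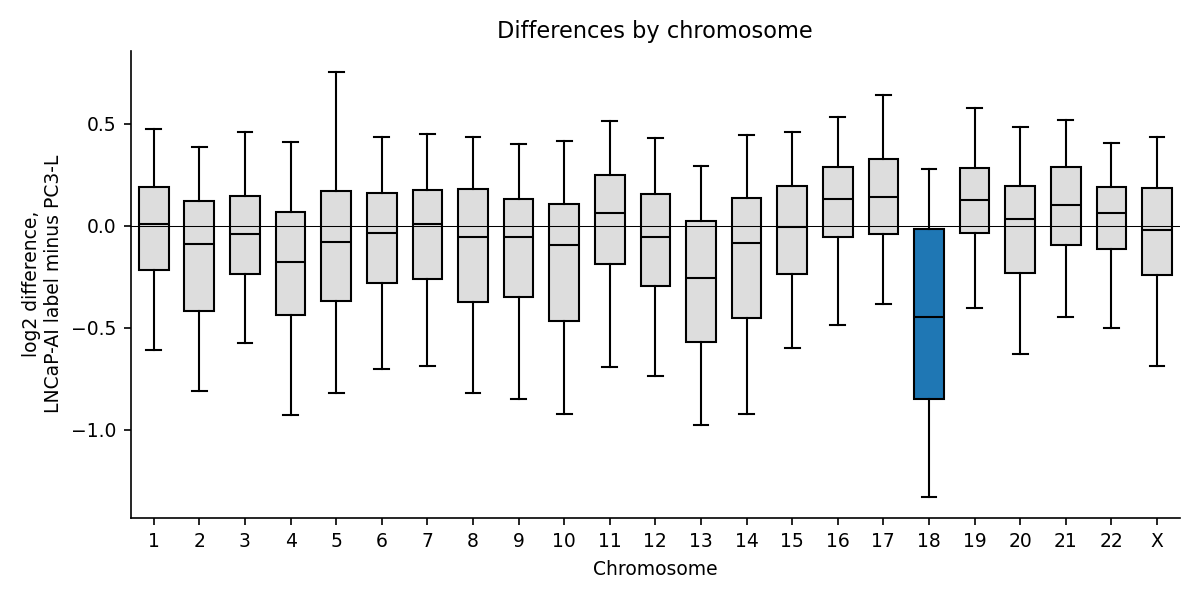
Log2 difference of the array labelled LNCaP-AI minus PC3-L over the genes past the filter on each chromosome, with boxes from the lower to the upper quartile, a line at the median and whiskers at the 5th and 95th percentiles. Chromosome 18, in blue, has the lowest median at -0.45, and its whole box lies below 0.

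The difference did not run over the whole chromosome. In 14 successive blocks of 11 genes, the first 4, from USP14 to GREB1L, had medians from -0.23 to 0.01, blocks 5 to 13, from ESCO1 to TSHZ1, had medians from -0.96 to -0.41, and the last, from ZNF516 to PARD6G, had -0.09. Comparisons that share an array gave the chromosome a median of 0.36 for PC3-L minus PC3-H and -0.03 for the array labelled LNCaP-AI minus PC3-H. A window of 25 genes from SMAD4 to VPS4B, the first of 4 overlapping windows tied as the lowest of 10385, had -0.81 here, 0.81 for PC3-L minus PC3-H and 0.01 for the array labelled LNCaP-AI minus PC3-H. Of 181 windows at or below -0.5, 89 were on chromosome 18, which held 130 of the 10385 windows. Neighbouring windows share nearly all their genes, so these 89 are not separate observations.

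A stretch of chromosome 14 had the other arrangement. The window from SOS2 to MAPK1IP1L had a median of -0.69, with 4 genes lower by 2-fold or more. It had -0.12 for PC3-L minus PC3-H, -0.86 for the array labelled LNCaP-AI minus PC3-H and -0.71 for LNCaP minus PC3-H. GCH1, the first enzyme of tetrahydrobiopterin synthesis, had 113, 131, 91.5 and 42.3 (-1.60), and GNPNAT1, an enzyme of amino sugar synthesis, had 536, 480, 295 and 223 (-1.10). In these genes both PC3 cultures were the higher arrays, and the arrays labelled LNCaP and LNCaP-AI the lower ones. On chromosome 2 the window from THADA to CFAP36 had -0.62, beside 0.70 for PC3-L minus PC3-H and 0.23 for the array labelled LNCaP-AI minus PC3-H.

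**Figure D5:**
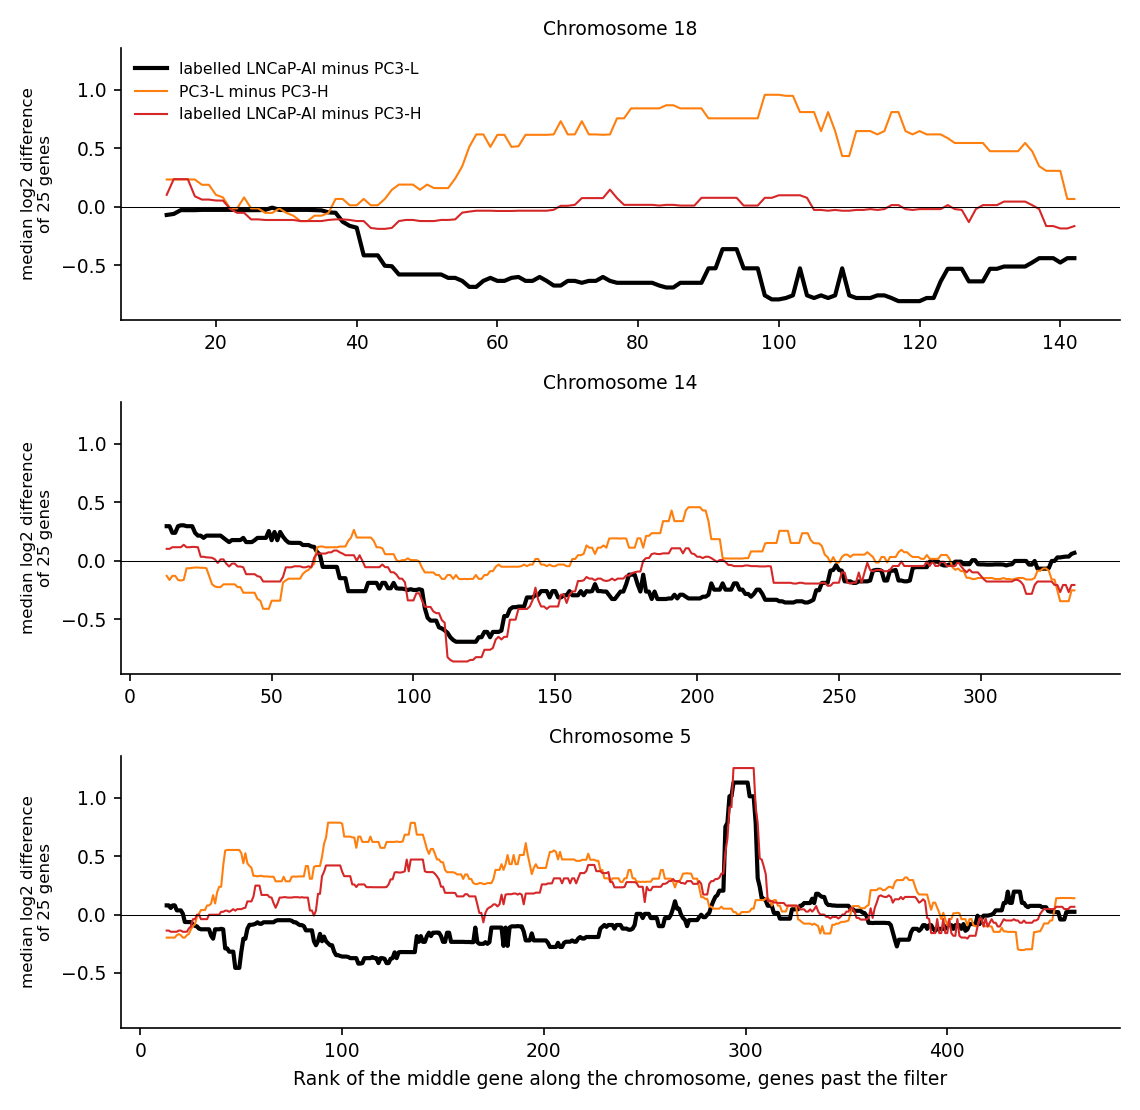
Median log2 difference in windows of 25 neighbouring genes by gene rank along chromosomes 18, 14 and 5, for the array labelled LNCaP-AI minus PC3-L (black), PC3-L minus PC3-H (orange) and the array labelled LNCaP-AI minus PC3-H (red), which share arrays. The black line goes down to -0.81 on chromosome 18, where orange lies above 0, to -0.69 on chromosome 14, where red is also low, and up to 1.13 over the beta-protocadherins on chromosome 5, where red is also high.

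The genes past 2-fold were also read between LNCaP and PC3-H, which share no array with the low-label pair. Of the 91 genes higher on the array labelled LNCaP-AI, 4 were higher on LNCaP by 2-fold or more (4.40%) and 23 lower (25.3%), with a median of -0.25. Among the 214 lower genes 25 were higher (11.7%) and 32 lower (15.0%), with a median of 0.11. Over all genes past the filter the shares were 4.94% higher and 4.20% lower. Across the 10942 genes the correlation of the differences was -0.16, a description over genes that share their arrays.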

How the data were processed

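Each of the 4 cultures gave total RNA for 1 Affymetrix whole-transcript array. Extraction used ISOGEN II and biotin labelling a WT Terminal Labeling kit, per the labels. The values are intensity values deposited by the authors, and their range shows a linear scale. GeneSpring GX 12.6 is named in the submitters' design text, and summarisation, background correction and normalization are not given in the sources used here. Array medians lay between 39.8 and 41.2.

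Intensities were taken to log2 after adding 1. Of 37934 probes, 14952 (39.4%) had 1 gene symbol in the platform table and stood for 14006 genes. Where a gene had over 1 probe (583 genes), the brightest by mean was kept. With 1 array a group no test was possible, and array number limits the precision. The genes named were the 20 largest and 20 smallest differences and members of the lists past 2-fold, up to 4 in each direction. All glycan synthesis genes, the best measured line markers, the brightest cell type markers and the genes nearest the limit were added. Not every list member past 2-fold is named. Members left unnamed include a LNCaP marker (-1.34) and a p53-induced (1.48), a neuronal (1.06) and a ribosomal protein gene (-1.02). Further members of a described group are given for completeness, and these, SMAD4, HBEGF and VTRNA1-1 among them, were chosen after their values were seen. Small RNAs, uncharacterised and Y-linked genes were left out of this rule. The members and gene lists were chosen with earlier results of these data known. The beta-protocadherin, small Cajal body RNA and tRNA synthetase families, the motifs and the chromosome windows were chosen after values were seen. Gene order and promoters came from RefSeq tables of GRCh38.p14. Scripts used Python 3.11.15, pandas 2.3.3 and statsmodels 0.14.6 and were tested on simulated data.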

Additional observations from a re-analysis of the deposited data

How the results depend on the processing

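No paired analysis was possible because each group had 1 array, and for the same reason no replicate could be left out. The counts of genes past 2-fold, 91 higher and 214 lower, were 70 and 150 with a pseudocount of 16, 102 and 166 after quantile normalization, 85 and 250 after centring, and 97 and 162 after removal of a trend with gene length. They were 159 and 428 when the lowest value of each array less 1 was subtracted, 223 and 430 over all probes, 344 and 992 at a 1.5-fold limit, and 10 and 12 at a 4-fold limit. With PC3-H in place of PC3-L, the opposite assignment of the sorted cultures, they were 443 and 373. The beta-protocadherin median of 1.68 over genes past the filter was 1.24 with the pseudocount of 16, 2.98 after the subtraction and 1.55 with no filter. Chromosome 18 had 43 lower genes after the subtraction in place of 26, and its median of -0.45 was -0.13 with no filter. Without chromosome 18 there were 188 lower genes, and without the beta-protocadherins 78 higher ones. Both only take those genes out of the main counts and are no check on the processing. Over 50 named genes and 9 settings, 422 of 450 values kept their direction and side of 2-fold, 15 dropped within it, 13 passed it and 0 changed sign. The settings that change only the filter could not change a gene's value. Most of these genes were the 20 largest and 20 smallest differences, so this count says little about genes in general. Of 1107 values of gene lists 39 moved. The setting that left out the beta-protocadherins, and those without chromosome 18, were chosen after seeing the data. Dim genes limit what can be read: no intensity lay below 17.6, so folds against dim arrays are understated.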
